A study of Mus musculus with 36 samples.

Results

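The transcripts of somatostatin (Sst), its close relative cortistatin (Cort) and 4 of their receptors (Sstr1, Sstr2, Sstr3 and Sstr4) were followed in 3 brain regions of mice in which Dicer, the enzyme that matures microRNAs, was deleted in adult neurons by tamoxifen. These 6 genes, of 18193 gene names on the array, were taken as every probe set annotated to a single gene whose symbol is on that list, which gave 8 probe sets of 34945. Sstr3 is measured by probe sets 1441603_at and 1450577_at and Sstr4 by 1422281_at and 1457440_at, whereas Sst (1417954_at), Cort (1449820_at), Sstr1 (1450527_at) and Sstr2 (1422256_at) have a single probe set each. All mice were Cre+;Dicerlox/lox on a C57BL/6J background, so that both arms carried the floxed Dicer alleles and the tamoxifen-dependent Camk2a-CreERT2 transgene, whose promoter is active in forebrain excitatory neurons. At 8 weeks of age, cKO mice received tamoxifen (10 mg in all over 5 days) and control mice received vehicle, and the animals were killed 4 or 8 weeks afterwards for dissection of cortex, hypothalamus and hippocampus. Each of the 12 combinations of tissue, treatment and time had 3 arrays, each from a different animal, while most cortex and hypothalamus arrays came from the same animals. The hippocampus arrays came from other animals. All values are log2 RMA values, a background-corrected and normalized measure of probe brightness in which 1 unit is a doubling, and each tissue was normalized on its own.

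Somatostatin and cortistatin are short peptides cut from larger precursors. In the cortex and hippocampus, somatostatin marks inhibitory interneurons that contact the dendrites of excitatory cells, and cortistatin is made mainly by inhibitory neurons. In the hypothalamus, somatostatin neurons restrain the release of growth hormone from the pituitary. The receptors are all coupled to inhibitory G proteins that lower cyclic AMP, and Sstr3 stands out in neurons because the receptor sits in the primary cilium. Transcription of Sst itself is a classic target of cyclic AMP through the transcription factor CREB. In tissue pieces such as these, fewer cells of a type and less transcript per cell cannot be told apart.

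The windows around the RefSeq start sites (GRCm38.p6, 250 bases before to 50 after the start) are shown for Sst and Sstr2, the pair of closest correlation over the cortex arrays before group means are removed, and for Sstr3, which held the single difference that passed the test. Capitals mark the cyclic AMP response element TGACGTCA or its 5-base part TGACG on either strand, the part being contained in the whole element.

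Sst, chr16:23890795-23891094, minus strand: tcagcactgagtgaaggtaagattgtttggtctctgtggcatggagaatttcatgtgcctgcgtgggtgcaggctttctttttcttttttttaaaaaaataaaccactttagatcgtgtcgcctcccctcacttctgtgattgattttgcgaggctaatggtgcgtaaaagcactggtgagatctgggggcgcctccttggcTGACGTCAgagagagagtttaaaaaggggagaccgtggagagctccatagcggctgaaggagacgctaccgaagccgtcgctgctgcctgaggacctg

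Sstr2, chr11:113619077-113619376, plus strand: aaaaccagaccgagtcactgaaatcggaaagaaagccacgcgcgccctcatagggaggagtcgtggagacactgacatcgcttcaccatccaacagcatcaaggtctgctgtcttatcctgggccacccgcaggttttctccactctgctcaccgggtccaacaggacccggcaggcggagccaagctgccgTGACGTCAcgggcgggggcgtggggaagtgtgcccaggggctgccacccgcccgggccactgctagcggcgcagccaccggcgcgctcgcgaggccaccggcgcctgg

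Sstr3, upstream start, chr15:78544296-78544595, minus strand: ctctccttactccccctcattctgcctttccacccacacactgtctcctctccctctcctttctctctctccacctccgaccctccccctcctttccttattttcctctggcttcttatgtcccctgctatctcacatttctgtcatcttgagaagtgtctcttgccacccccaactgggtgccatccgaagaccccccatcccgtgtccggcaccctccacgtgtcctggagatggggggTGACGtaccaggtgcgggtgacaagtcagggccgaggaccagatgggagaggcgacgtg

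Sstr3, downstream start, chr15:78541357-78541656, minus strand: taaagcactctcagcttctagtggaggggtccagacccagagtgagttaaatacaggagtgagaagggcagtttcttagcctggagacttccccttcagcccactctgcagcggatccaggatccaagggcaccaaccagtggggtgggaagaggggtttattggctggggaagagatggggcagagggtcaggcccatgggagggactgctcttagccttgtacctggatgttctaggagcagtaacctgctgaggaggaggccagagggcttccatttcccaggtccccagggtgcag

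The whole element was found in the Sst window, where it begins 48 bases before the start, and in the Sstr2 window, where it begins 58 bases before the start. Of 32851 such windows, 588 (1.79%) hold it, and 20.8% hold the 5-base part on either strand. The upstream Sstr3 window and the Cort window (chr4:149126714-149127013, minus strand) hold the 5-base part a single time, and the downstream Sstr3 window and the Sstr4 window (chr2:148395127-148395426, plus strand) hold neither. The genes themselves lie at chr16:23889573-23891342 (Sst), chr4:149125034-149126763 (Cort), chr12:58211421-58216037 (Sstr1), chr11:113619327-113626028 (Sstr2), chr15:78537014-78549365 (Sstr3) and chr2:148395377-148396764 (Sstr4) of GRCm38.p6. The motif hits are matches of letters in a window and no evidence of binding.

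Before any comparison, 2 features of the arrays bear on the members. In the cortex, 5 arrays (all 3 cKO arrays at 4 weeks, the third control array at 4 weeks and the second cKO array at 8 weeks) had a median over all single-gene probe sets of 5.78 to 5.79, and the other 7 had a median of 5.66 to 5.70. The same 5 arrays had the smallest 3′ minus 5′ difference of the actin control probe sets, a sign of transcript integrity and labelling, at 1.07 to 1.18 against 1.28 to 1.48. In the tissue labelled hippocampus, 3 of 4 markers of excitatory neurons were low in 11 of 12 arrays. Neurod6, a transcription factor of excitatory neurons, had values of 2.68 to 3.31 in those 11 arrays against 9.05 in cKO replicate 1 at 8 weeks and 6.33 to 8.35 in the cortex. Slc17a7, the vesicular glutamate transporter of cortical and hippocampal principal cells, had 3.74 to 4.41 against 7.56 in that array and 9.19 to 9.52 in the cortex. Tbr1 had 2.69 to 3.04 against 3.95, both below the cortex (6.35 to 8.34). Camk2a, the fourth marker, was high in value throughout (9.78 to 10.51, against 11.81). Even so, it lay below the cortex (12.17 to 12.37) in all 12 arrays. As deposited, Camk2a in the 11 also lay below the hypothalamus (10.70 to 11.18). Ranked within each array, however, Camk2a in the 11 reached percentile 95.9, above the lowest hypothalamic array (94.98). Of the markers of the hippocampus itself, the dentate gyrus gene C1ql2 had 5.89 to 6.71 in the 11 arrays against 8.34, Prox1 had 4.02 to 4.78 against 6.25, and Wfs1 had 8.65 to 9.16 against 9.58. Fibcd1, the fourth, had 6.66 to 7.67 against 7.75. As deposited, Fibcd1 in the 11 arrays overlapped the cortex (5.75 to 6.86) and lay above the hypothalamus (5.85 to 6.08). The other markers also overlapped the cortex (C1ql2 4.51 to 6.73, Prox1 2.61 to 4.34, Wfs1 8.75 to 9.36). They lay below the hypothalamus (6.80 to 7.21, 6.44 to 7.51 and 9.67 to 10.08). By rank within the array, C1ql2 in the 11 reached percentile 56.9, above the lowest hypothalamic array (51.2). The markers thus differ on the tissue label of those 11 arrays, and the 12 are called the arrays labelled hippocampus. The hypothalamic arrays carried their defining peptides, with Pmch at 13.27 to 13.59 and Hcrt at 11.31 to 12.82. The Dicer1 probe sets gave cKO minus control differences of -0.09 to 0.45 with no call in any tissue, and since it is not known whether their probes lie in the excised exon, they check nothing about the deletion.

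Sstr3 was the only member with a difference that passed the test, and it did so with only 1 of its 2 probe sets, in the cortex at 4 weeks. Probe set 1441603_at had values of 6.15, 5.81 and 5.97 in the cKO arrays against 6.66, 6.78 and 6.72 in the control arrays. The groups did not overlap, and the highest cKO value lay below the lowest control value. The difference of -0.74 (SE 0.17, 95% interval -1.12 to -0.37) is a control level 1.67-fold that of cKO mice, and its adjusted p was 0.114 in the limma fit over every single-gene probe set, under the false discovery rate of 15% used by the study. In that fit 2.88% of all probe sets were called, and 17.7% had groups that did not overlap, as did 1 of the 8 member probe sets.

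The second Sstr3 probe set did not show a clear difference. With 1450577_at, the cKO arrays had 4.48, 4.37 and 4.72 and the control arrays had 5.57, 5.18 and 4.23. The lowest of all 6 values was that of a control array, replicate 3, so that the groups overlapped although the cKO mean was lower by 0.47 (SE 0.28, adjusted p = 0.308 in limma). Because 1450577_at was the more variable of the pair, it stood for Sstr3 in the fit over filtered genes, in which 5.23% of genes were called but none of the 5 members in it. The call of 1441603_at was lost without cKO replicate 1 (adjusted p = 0.210) or 2 (0.354), without control replicate 1 (0.352) or 2 (0.319), and in a fit of the 6 arrays alone (0.368), while the difference stayed between -0.83 and -0.66 when any 1 of these arrays was left out.

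**Figure D1:**
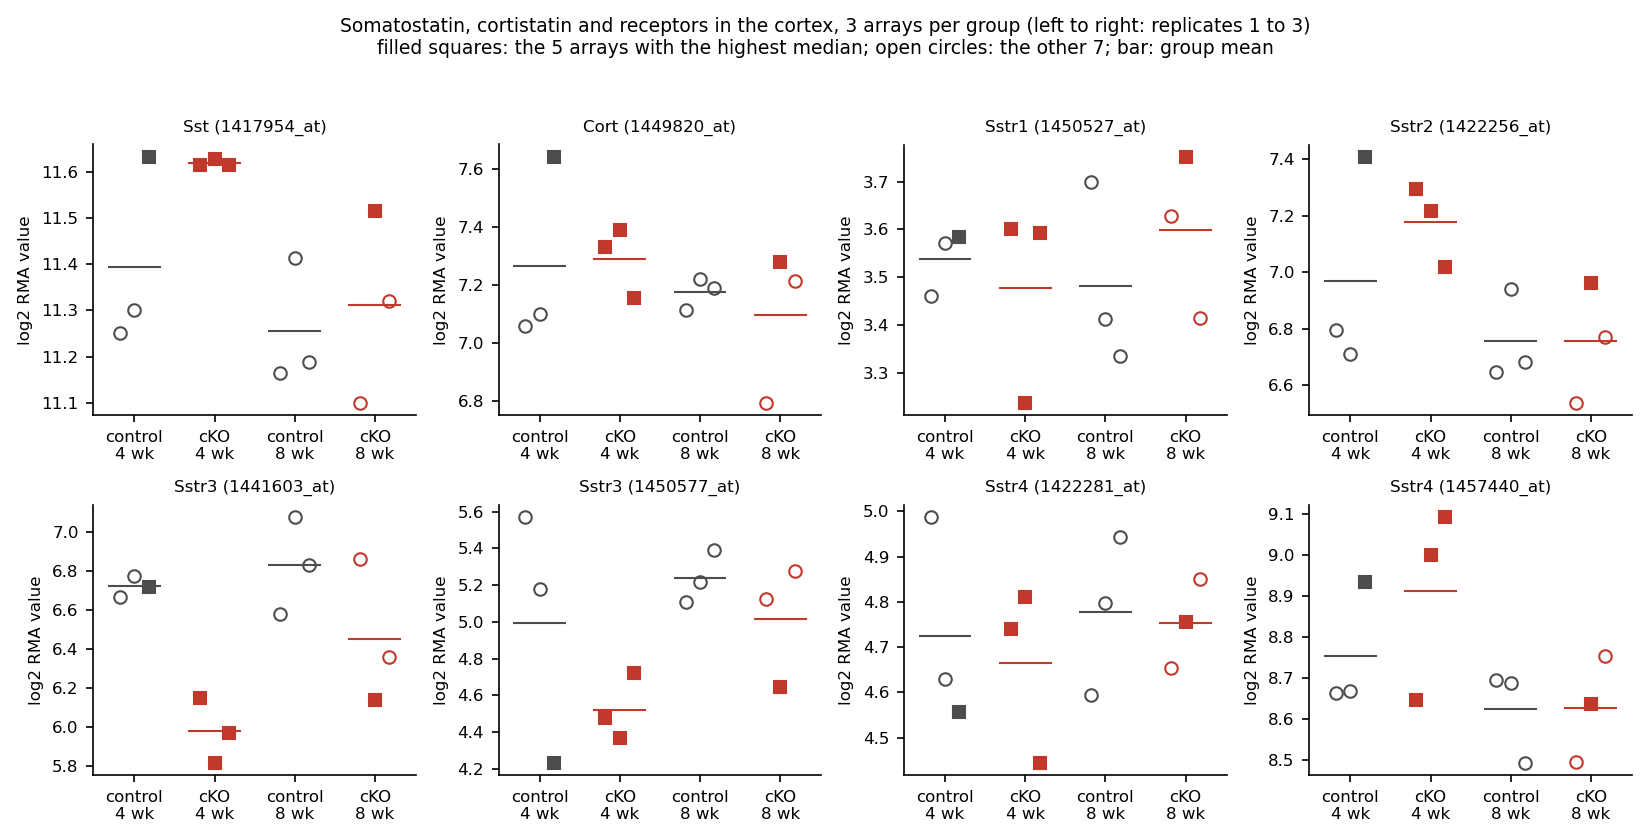
Log2 RMA values of the 8 probe sets in each of the 12 cortex arrays, by treatment and weeks after treatment, with group means as bars and the 5 arrays of highest median as filled squares. Sstr3 1441603_at is lower in all 3 cKO arrays at 4 weeks than in all 3 control arrays, while Sst, Sstr2 and Sstr3 1450577_at follow the filled squares, control replicate 3 at 4 weeks included.

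The position of control replicate 3 separates the 2 Sstr3 probe sets. In 1441603_at this control array (6.72) lay with the other control arrays. In 1450577_at it lay with the cKO arrays. Over the whole cortex, the 5 arrays of high median had 4.23 to 4.72 in 1450577_at and the other 7 had 5.11 to 5.57, with no overlap, whereas in 1441603_at they overlapped (5.81 to 6.72 against 6.36 to 7.08). The Pearson correlation of the 2 probe sets was 0.59 over the cortex arrays, and 0.21 with each group's mean removed. It was 0.04 in the hypothalamus and 0.48 under the hippocampus label. Which of them better measures Sstr3 was not tested. With the array median as a covariate the difference in 1441603_at was -0.56 (adjusted p = 0.292) and that in 1450577_at turned to 0.19 (adjusted p = 0.622). At 4 weeks this covariate nearly follows treatment, replicate 3 being the only control array of high median. These values therefore do not separate the array median from treatment.

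The Sstr3 change in the cortex also differed from the change in the other tissues when the difference itself was tested. In the hypothalamus at 4 weeks, 1441603_at had 6.63, 6.58 and 6.85 in cKO mice and 6.90, 6.66 and 6.65 in control mice, a difference of -0.05. The change in the cortex minus that in the hypothalamus was -0.70 (SE 0.20, adjusted p = 0.112 in limma with the animal as a random block), in a comparison in which 6.27% of probe sets were called. With arrays of 1 animal taken as independent it was -0.69 and not called (adjusted p = 0.164). In the arrays labelled hippocampus the cKO values of 6.00, 5.76 and 5.92 overlapped the control values of 5.94, 5.82 and 5.53. The change in the cortex minus that in these arrays was -0.88 (SE 0.22, adjusted p = 0.133), with 0.61% of probe sets called. Both contrasts rest on the same cortex arrays, and both calls were lost without cortex cKO replicate 2, cortex control replicate 1 or cortex control replicate 2, with values of -0.62, -0.73 and -0.67 against the hypothalamus and -0.79, -0.90 and -0.85 against the hippocampus label. The call against the hypothalamus was also lost without its cKO replicate 2 or 3 or control replicate 1 or 2 (-0.74, -0.62, -0.77 and -0.66), and the other without cKO replicate 1 or 3 or control replicate 2 or 3 of the arrays labelled hippocampus (-0.82, -0.86, -0.91 and -0.76). With 1450577_at the same contrasts were -0.40 (adjusted p = 0.375) and -0.43 (adjusted p = 0.605), and at 8 weeks, where 0% of probe sets were called in either comparison, no member passed the test.

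**Figure D2:**
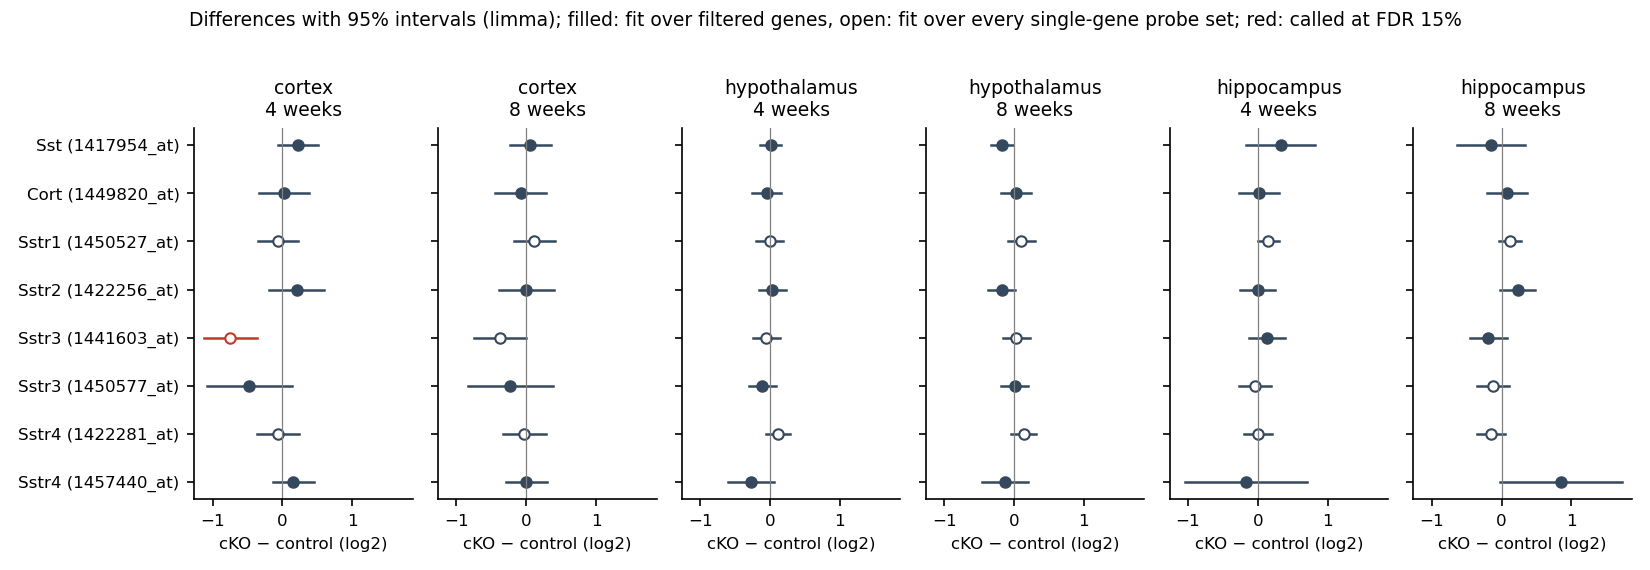
Difference between cKO and control means (log2) of each probe set with its 95% interval from limma, for the 3 tissues and 2 times. Of 48 differences, Sstr3 1441603_at in the cortex at 4 weeks is the only one called, and the interval of Sstr4 1457440_at at 8 weeks in the arrays labelled hippocampus is the widest, from -0.02 to 1.73.

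The peptides were not called in the cortex at 4 weeks. Sst had 11.61, 11.63 and 11.61 in the cKO arrays, the tightest group of the cortex, and 11.25, 11.30 and 11.63 in the control arrays. Control replicate 3 held the highest value of all 6, and the difference of 0.22 (SE 0.13, interval -0.07 to 0.52) had an adjusted p of 0.315 in limma. Cort had 7.33, 7.39 and 7.15 in cKO mice and 7.06, 7.10 and 7.64 in control mice, and again the highest value was that of control replicate 3. The Cort difference of 0.02 (SE 0.17) had an interval of -0.34 to 0.39. Sstr2, the receptor that in many neurons opens potassium channels, had 7.30, 7.22 and 7.02 against 6.79, 6.71 and 7.41, with the same control array highest and a difference of 0.21 (SE 0.18, adjusted p = 0.472). Without control replicate 3, the differences of Sst (0.34, adjusted p = 0.0758), Sstr2 (0.43, adjusted p = 0.0604) and Sstr3 1450577_at (-0.85, adjusted p = 0.0237) passed the test, in a fit that then called 46.3% of all genes.

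Across the 12 cortex arrays these transcripts varied together. The Pearson correlation of Sst with Sstr2 was 0.94, that of Sst with Cort 0.77 and that of Cort with Sstr2 0.87, and Sstr3 1450577_at ran opposite to Sst (-0.84) and to Sstr2 (-0.85). With each group's mean removed the first 3 were 0.91, 0.88 and 0.92. These are descriptions over 12 arrays that share their normalization. Sst was 11.51 to 11.63 in the 5 arrays of high median and 11.10 to 11.41 in the other 7, and Sstr2 was 6.96 to 7.41 against 6.54 to 6.94, both with no overlap. Of all single-gene probe sets, 16.5% separated these 2 sets of arrays without overlap, and of the 8 member probe sets 3 did. At 4 weeks every cKO array was among the 5 of high median, and of the control arrays only replicate 3 was. The array median and treatment therefore cannot be told apart here, and the covariate above does not separate them.

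**Figure D3:**
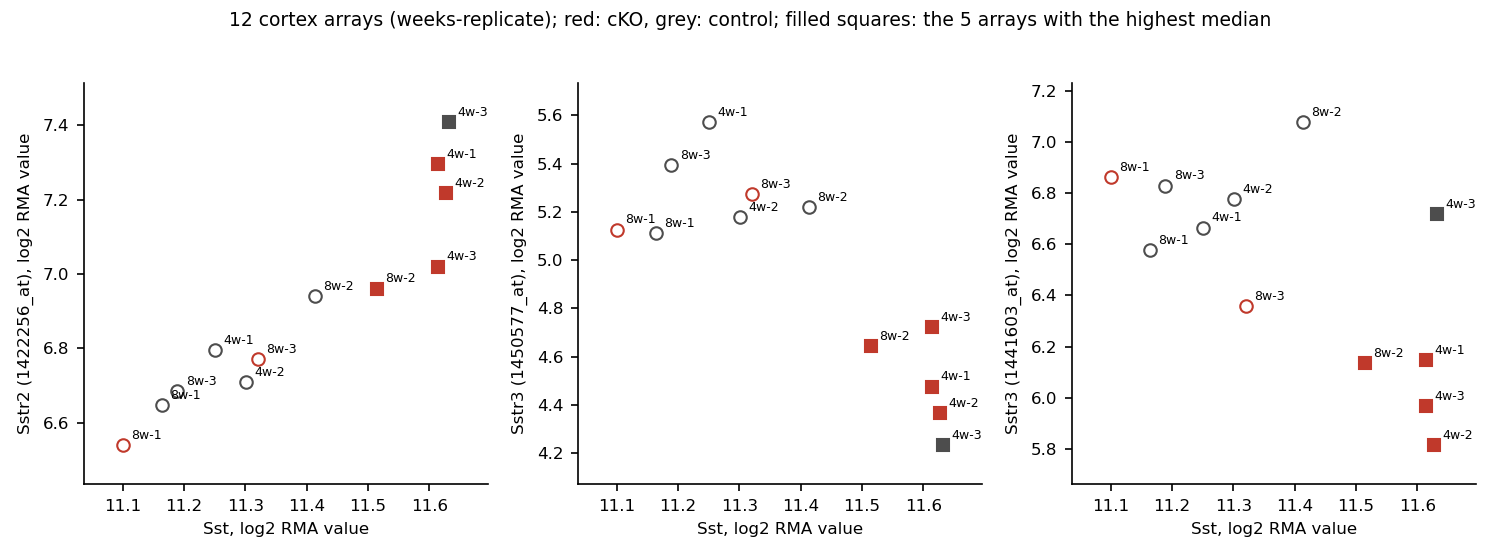
Sst (x axis) against Sstr2, Sstr3 1450577_at and Sstr3 1441603_at (y axes), log2 RMA values in 12 cortex arrays labelled by weeks and replicate, with cKO in red, control in grey and the 5 arrays of highest median as filled squares. Sstr2 rises with Sst over the arrays, 1450577_at splits into 4.23 to 4.72 and 5.11 to 5.57, and in 1441603_at control replicate 3 at 4 weeks stands at 6.72, away from the cKO arrays.

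Leptomeningeal genes and signs of RNA composition moved with the 4-week cortex groups, in a fit that called 5.23% of all genes. Of 24 leptomeningeal genes tested, 17 rose in cKO mice, among them the sulfate transporter Slc13a4 (0.77) and the extracellular matrix gene Ogn (0.93), and the median over the list was 0.71 against 0.11 over all genes tested. The median deviation of the leptomeningeal list from each gene's cortex mean was 0.49, 0.42 and 0.32 in cKO mice, against -0.47, -0.31 and 0.00 in control mice. Of 28 nuclear-retained or intron-rich transcripts, 2 fell (Malat1, -2.84, and Nucks1, -2.11) and 1 rose (Neat1, 0.47), with a median of -0.52. The median deviation of that list was -0.79, -0.40 and 0.23 in cKO mice, against 0.36, 0.35 and 0.24 in the control arrays. Of 15 markers of excitatory neurons, 2 fell, the cortical transcription factors Tbr1 (-0.88) and Cux2 (-1.03). In that list 13 means were lower and 2 higher in cKO mice, with a median of -0.19 against 0.11 over all genes tested. The gap junction gene Gjb1 rose (0.49, 1 of 13 oligodendrocyte genes), as did the glial filament Gfap (0.69, 1 of 12 astrocyte genes), the hypothalamic peptide Pmch (0.59, 1 of 10 genes of hypothalamic nuclei) and the dentate gyrus gene Tdo2 (adjusted p = 0.0942, 1 of 9 hippocampal genes). The medians of these lists were 0.23, 0.06, 0.24 and 0.27 in that order, against 0.11 over all genes tested. With 5.23% of all genes called, no change of a cell type is read from these single calls. Of 16 microglial, 10 endothelial and 6 choroid plexus genes none was called. None of the leptomeningeal, nuclear-retained and excitatory calls was made without cKO replicate 1 or 2, or without control replicate 1 or 2, while without control replicate 3 or cKO replicate 3 the calls among nuclear-retained transcripts numbered 18 and 16. With each array centred on its median, 12 leptomeningeal and 2 excitatory genes were called and no nuclear-retained transcript was, and the calls of Gjb1, Gfap and Pmch were lost. The part of these movements in the Sstr3 difference was not tested.

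The remaining receptors of the 4-week cortex showed no call. Sstr4 1457440_at had 8.65, 9.00 and 9.09 in cKO mice and 8.66, 8.67 and 8.93 in control mice, which overlap, with a difference of 0.16 (SE 0.14, adjusted p = 0.463). Sstr4 1422281_at lay at 4.44 to 4.99 and Sstr1 at 3.24 to 3.60, and Sstr1 stayed below the filter on low values in every tissue. Of the 8 probe sets, 7 passed that filter in each tissue.

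At 8 weeks no member was called in the cortex, where 0% of genes were called in the filtered fit, 0% in the fit over every probe set, and 15.3% of probe sets had groups that did not overlap, against 0 of 8 members. No member had an unadjusted p under 0.05 there. The 8-week cKO arrays had 6.86, 6.14 and 6.36 in Sstr3 1441603_at, and the control arrays 6.58, 7.08 and 6.83. Replicate 1 of the cKO mice was as high as the control mice and the other cKO arrays were lower, and the difference of -0.38 (SE 0.17, interval -0.75 to 0.00) had an adjusted p of 0.919 in limma. It was -0.58 without cKO replicate 1, -0.22 without cKO replicate 2 and -0.25 without control replicate 2, and was not called in any of these fits. The 8-week difference minus the 4-week difference was 0.37 (SE 0.25, adjusted p = 0.643), so the change was not shown to differ between the times. Sstr3 1450577_at had 5.13, 4.64 and 5.27 in cKO mice and 5.11, 5.22 and 5.39 in control mice, with only cKO replicate 2 away from the rest. Sst had 11.10, 11.51 and 11.32 against 11.16, 11.41 and 11.19, a difference of 0.06 (SE 0.13, interval -0.24 to 0.35). Cort had 6.79, 7.28 and 7.21 against 7.11, 7.22 and 7.19, and Sstr2 had 6.54, 6.96 and 6.77 against 6.65, 6.94 and 6.68. In each of these 3 genes cKO replicate 1 was the lowest and cKO replicate 2 the highest array of the 6. Sstr4 1457440_at lay between 8.49 and 8.75 in all 6 arrays. Within cKO mice, the 8-week minus 4-week contrast was 0.48 for Sstr3 1441603_at (adjusted p = 0.249), -0.31 for Sst (adjusted p = 0.244) and -0.42 for Sstr2 (adjusted p = 0.242). Without cKO replicate 2 at 8 weeks all 3 passed the test (0.63, -0.41 and -0.52, adjusted p = 0.119, 0.126 and 0.148), without control replicate 3 at 4 weeks Sst and Sstr2 did (adjusted p = 0.125 and 0.0933), and without cKO replicate 3 at 4 weeks Sstr2 did (-0.50, adjusted p = 0.139). Without cKO replicate 1 at 8 weeks the 3 contrasts were 0.27, -0.20 and -0.31. The percentage of genes called in the cortex was 0% for this contrast and 0.0068% for both the control contrast and the interaction.

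In the hypothalamus no member was called in limma. An unadjusted p under 0.05 was seen for 0 of 8 probe sets at 4 weeks and 1 of 8 at 8 weeks. At 4 weeks 0% of genes were called in the filtered fit and 0% in the fit over every probe set, and 6.85% of probe sets had groups that did not overlap. Sst had 11.05, 11.09 and 11.08 in cKO mice and 11.11, 11.03 and 11.06 in control mice, so that all 6 arrays lay between 11.03 and 11.11. The interval of its difference, -0.15 to 0.16, spans the change at this time. Cort had 6.74, 6.74 and 6.91 against 6.95, 6.81 and 6.79, and Sstr2 had 7.41, 7.51 and 7.23 against 7.45, 7.31 and 7.30, both with overlapping groups. Sstr4 1422281_at overlapped too, with a difference of 0.11. The single member without overlap was the other Sstr4 probe set, 1457440_at, with 7.70, 7.67 and 7.54 in cKO mice below 8.12, 7.76 and 7.84 in control mice, a difference of -0.27 (SE 0.15, adjusted p = 0.998 in limma). Without control replicate 1 it was -0.17. That array stood apart on the leptomeningeal list, with a median deviation of 1.01 against -0.73 to -0.18 in the other 5, and on the nuclear-retained list (-0.37 against 0.02 to 0.08), and the part of this in the Sstr4 value was not tested.

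At 8 weeks the hypothalamic Sst values of cKO mice were 10.763, 10.826 and 10.914, and those of control mice were 10.997, 11.109 and 10.911. The 2 lowest values were those of cKO mice, but the highest cKO array lay at the level of the lowest control array. The difference of -0.17 (SE 0.07, interval -0.33 to -0.02) had an unadjusted p of 0.0326 and an adjusted p of 0.662 in limma. Sstr2 had 7.02, 7.10 and 7.23 against 7.29, 7.22 and 7.36, a difference of -0.17 (SE 0.09, adjusted p = 0.810). Between 4 and 8 weeks within cKO mice, Sst differed by -0.24 (SE 0.07, adjusted p = 0.289) and Sstr2 by -0.27 (SE 0.09, adjusted p = 0.376), in a contrast with 0.0129% of genes called. Without cKO replicate 3 at 8 weeks, the Sst contrast passed the test (-0.28, adjusted p = 0.139). In control mice 0% of genes were called between the times, and 0% for the interaction. In the 8-week comparison, 0% of filtered genes and 0.00858% of probe sets were called, and 12.1% had groups that did not overlap. Among the members this held for Sstr4 1422281_at alone, with 5.46, 5.55 and 5.53 above 5.29, 5.45 and 5.39, a difference of 0.14 (adjusted p = 0.926). No label pairs cKO with control arrays, but like-numbered arrays deviated together here, with correlations of 0.20, 0.26 and 0.27. With the replicate number as a block in limma, the adjusted p was 0.709 for Sst, 0.709 for Sstr2 and 0.803 for Sstr4 1422281_at. Beside these values, the microglial list had a median deviation of 1.80 and 1.31 in cKO replicates 1 and 2 and -0.19 in cKO replicate 3, with -0.16, -0.49 and -0.26 in control mice. The leptomeningeal list was at 1.70 in cKO replicate 3 and 1.25 in control replicate 3. Their part in the Sst and Sstr2 values was not tested. Both Sstr3 probe sets overlapped at 8 weeks, with differences of 0.04 (1441603_at) and 0.01 (1450577_at). Sstr4 1457440_at was spread widely in cKO mice (7.45, 7.62 and 8.11) and overlapped control mice (7.75, 7.90 and 7.91), with a difference of -0.13 (SE 0.15).

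In the arrays labelled hippocampus, a single array set the largest difference of the whole family. Sstr4 1457440_at, the receptor known for its expression in hippocampal pyramidal cells, had 8.85, 6.79 and 6.89 in cKO mice at 8 weeks and 6.78, 6.68 and 6.51 in control mice. Replicate 1 of the cKO mice, the array with high Neurod6 and Slc17a7, was far above every other array, although the groups did not overlap even without it. The difference was 0.85 (SE 0.40, interval -0.02 to 1.73, adjusted p = 0.767 in limma), and without that array it was 0.19 (SE 0.11, adjusted p = 0.871). The other Sstr4 probe set, 1422281_at, did not show this. Its difference was -0.16 (SE 0.09, adjusted p = 0.817 in limma), with control values of 4.80, 4.62 and 4.67. The array at 8.85 in 1457440_at had 4.58 in 1422281_at, between the other cKO arrays (4.38 and 4.66). The same array had the highest Cort value (7.04, against 6.45 to 6.71 in the control arrays) and the highest Sstr2 value (7.02, where the other cKO arrays had 6.78 and 6.62, and control mice 6.65, 6.63 and 6.44). The Sstr2 difference of 0.23 (SE 0.12, adjusted p = 0.767) was 0.13 without it (adjusted p = 0.875). In the same array Ttr, a choroid plexus gene, was at 12.62 against 6.51 to 10.42 in the other 11, and the choroid plexus list deviated by 0.55 against -0.46 to 0.66. The part of these markers in the Sstr4, Cort and Sstr2 values was not tested. The Sst value of the array (10.69) lay with those of the other cKO arrays (10.69 and 10.66) and of control mice (10.83, 10.68 and 10.98).

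**Figure D4:**
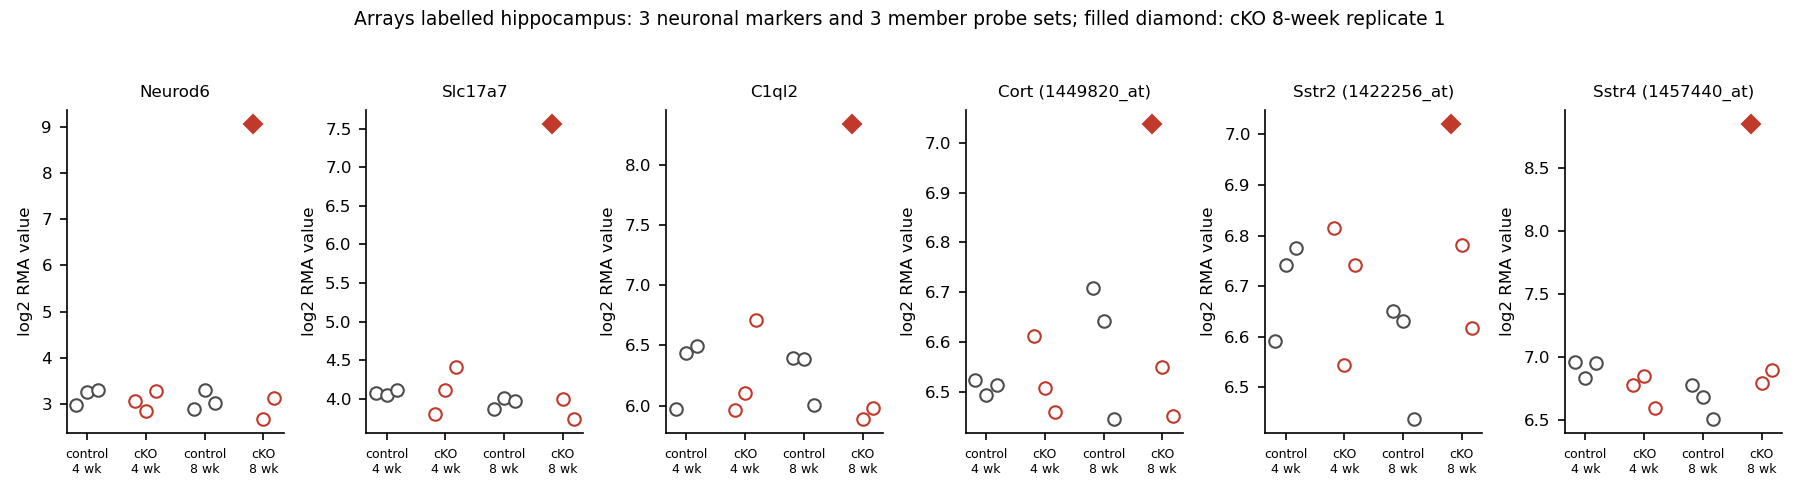
Log2 RMA values of Neurod6, Slc17a7, C1ql2, Cort, Sstr2 and Sstr4 1457440_at in the 12 arrays labelled hippocampus, by treatment and weeks, with cKO replicate 1 at 8 weeks as a filled diamond. That array is the highest in all 6 panels, at 9.05 for Neurod6 and 8.85 for Sstr4.

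Sst varied more in the arrays labelled hippocampus than in the other tissues. At 4 weeks the cKO arrays had 10.42, 10.72 and 10.26 and the control arrays 10.72, 10.15 and 9.56, the last being the lowest Sst value of all 36 arrays. The groups overlapped, and the difference of 0.33 had an interval of -0.17 to 0.82. In control mice Sst was higher at 8 than at 4 weeks by 0.69 (SE 0.23, adjusted p = 0.839), or by 0.39 without control replicate 3 at 4 weeks, the array at 9.56, where 0% of genes were called, as was so within cKO mice (0%) and for the interaction (0%). Sstr1 had cKO values above all control values at both times (3.93, 4.00 and 4.07 against 3.89, 3.86 and 3.79 at 4 weeks, and 3.95, 3.91 and 3.94 against 3.82, 3.88 and 3.73 at 8 weeks), with differences of 0.15 and 0.12 (adjusted p = 0.825 and 0.817) at a level below the filter. At 4 weeks 0% of filtered genes and 0% of probe sets were called and 10.5% had groups that did not overlap, against 1 of 8 members. At 8 weeks the same shares were 0%, 0% and 13.5%, against 2 of 8 members. No member had an unadjusted p under 0.05 in limma at either time.

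The levels of the members by tissue are set side by side only, since the tissues were normalized apart. Sst had control means of 11.33 ± 0.17 (SD, n = 6) for cortex, 11.04 ± 0.08 for hypothalamus and 10.49 ± 0.54 for the arrays labelled hippocampus. After joint quantile normalization of all 36 arrays they were 11.64, 10.64 and 10.52. The control arrays of hypothalamus (10.51 to 10.74) and hippocampus label (9.56 to 11.02) then overlapped. Cort had control means of 7.22 ± 0.21, 6.77 ± 0.11 and 6.56 ± 0.10 in the same order, which became 7.72, 6.27 and 6.54 after joint quantile normalization of all 36 arrays, so that the last places changed over. Sstr4 1457440_at had 8.69 ± 0.14, 7.88 ± 0.14 and 6.78 ± 0.17, with control arrays of 8.49 to 8.93, 7.75 to 8.12 and 6.51 to 6.96 that did not overlap between tissues. After the joint normalization this order held, at 9.12, 7.42 and 6.76. The other Sstr4 probe set, 1422281_at, had control means of 4.75, 5.44 and 4.68, with the hypothalamus highest. Joint normalization gave it 5.27, 4.86 and 4.78, with the cortex highest. For Sstr3 1450577_at the deposited order of hypothalamus (6.09), cortex (5.12) and hippocampus label (4.85) became cortex (5.65), hypothalamus (5.55) and hippocampus label (4.94), so that only the last place was kept. Sstr3 1441603_at kept its order of cortex (6.77, then 7.29), hypothalamus (6.69, then 6.18) and hippocampus label (5.88, then 5.89). Its control arrays overlapped between cortex and hypothalamus as deposited, and between hypothalamus and hippocampus label after joint normalization. For Sstr2 the hypothalamus was highest as deposited (7.32) and the cortex after joint normalization (7.38). No order between tissues is drawn from Cort, Sstr2 or Sstr3, nor from Sst between the hypothalamus and the arrays labelled hippocampus. The order of Sstr4 holds for probe set 1457440_at only.

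**Figure D5:**
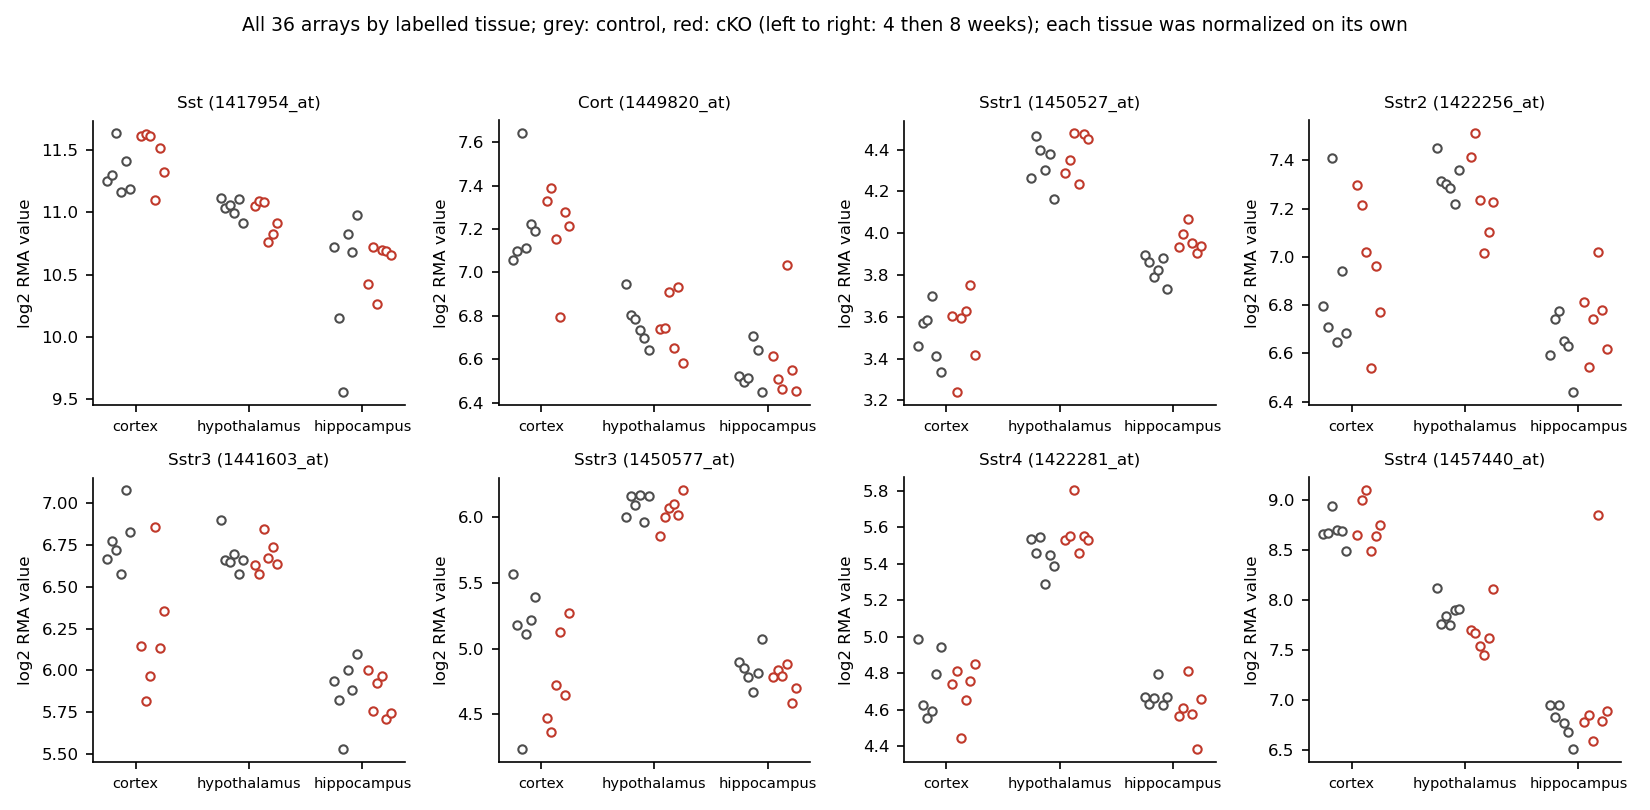
Log2 RMA values of the 8 probe sets in all 36 arrays by labelled tissue, control in grey and cKO in red, 4 weeks before 8 weeks from left to right. Sstr4 1457440_at steps down from cortex to hypothalamus to the arrays labelled hippocampus, apart from a single cKO array at 8.85.

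Genes that make, receive or pass on the signal of the peptides gave 0 to 2 calls a list in the cortex at 4 weeks, where 5.23% of all genes were called, and none in any other comparison of the filtered fit. Of 18 markers of somatostatin neurons tested none was called (median difference 0.15, against 0.11 over all genes), and of 11 markers of interneurons related to cortistatin none was called (median 0.04). Among 14 genes of peptide processing and breakdown, 1 rose, the prolyl oligopeptidase Prep (0.53, SE 0.14, adjusted p = 0.130 in limma). Among 23 G proteins and effectors, 2 rose, the calcium-stimulated adenylyl cyclases Adcy8 (0.47, adjusted p = 0.137) and Adcy1 (0.39, adjusted p = 0.145). Of 10 genes of the pathway from cyclic AMP to Sst, 1 rose, the transcription factor Pax6 (0.48, adjusted p = 0.143). Of 18 genes of the neuronal primary cilium, where the Sstr3 protein resides, none was called and the median was 0.15, with 14 higher and 4 lower in cKO mice. Of 13 receptor regulators and partners and 11 genes of the growth hormone axis none was called, with medians of -0.08 and 0.08. The calls of Prep, Adcy8, Adcy1 and Pax6 were lost when each array was centred on its median, and no gene of these lists was called without cKO replicate 1 or 2, or without control replicate 1 or 2. Without control replicate 3, 9 markers of somatostatin neurons and 8 cilium genes were called, among the 46.3% of all genes called then.

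In the hypothalamus at 8 weeks the lowest p-values of the same lists belonged to Vip, a peptide of another interneuron class and of the suprachiasmatic nucleus (-1.65, SE 0.28, adjusted p = 0.370), and to the phosphatase Ptpn6 (1.43, SE 0.33, adjusted p = 0.370). Neither passed the test. Ptpn6 is a gene of blood and microglial cells, and all 17 microglial genes were higher in the same comparison, with a median of 1.33. The transcription factor Lhx6, needed for the development of somatostatin interneurons, differed by 0.80 (SE 0.28, adjusted p = 0.523), and Ghrh, the releasing hormone that somatostatin opposes, by -0.29 (SE 0.18, adjusted p = 0.916).

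The transcripts most like the members were sought by Pearson correlation over the 36 arrays after removal of each tissue's mean, among 8973 genes tested in all 3 tissues. For Sst they were Npy, a peptide made by many somatostatin interneurons (0.83), Nrgn (0.80) and Tmem132a (0.76). Npy followed Sst in each tissue, at 0.68 in cortex, 0.86 in hypothalamus and 0.97 under the hippocampus label. For Cort they were Git1 (0.79), Sh3rf3 (0.77) and Sertad1 (0.76), with 0.87 to 0.91 in cortex, 0.09 to 0.43 in hypothalamus and 0.72 to 0.89 under the hippocampus label. For Sstr3, measured by 1450577_at, they were Smim14 (0.90), Scrn2 (0.87) and H2az1 (0.87). The genes most like Sstr3 followed it in the cortex (0.92 to 0.96), but with values of 0.04 to 0.54 in the hypothalamus and 0.02 to 0.28 under the hippocampus label. These values describe arrays that share groups and normalization.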

How the data were processed

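Total RNA of 36 samples was measured on Affymetrix mouse arrays. The deposited values are log2 RMA values that the authors computed separately for each tissue; no software version was stated in the sources used, and neither detection calls nor probe positions were used. Probe sets were named from the platform annotation in GEO. In each tissue the annotated probe sets were ranked by their third-highest value, kept up to the number of genes in the study's methods, and reduced to the most variable probe set per gene. Differences were tested with limma 3.58.1 (R 4.3.3) on 4 groups, Benjamini-Hochberg adjusted, at a false discovery rate of 15%. Member probe sets outside that set were taken from a fit over all 34945 single-gene probe sets. The difference of changes between cortex and hypothalamus was fitted with the animal as a random block. Contrasts with the arrays labelled hippocampus, which came from other animals, had no block. Precision is limited by 3 arrays per group. In the hypothalamus at 8 weeks, arrays with the same number in the titles deviated together (correlations of 0.20, 0.26 and 0.27). The fits were tested on simulated data with independent noise for each gene. No shift shared by arrays was simulated, so that test does not bear on the array medians of the cortex. Members, gene lists and named genes (all members, per list up to 4 called in the cortex at 4 weeks and up to 2 of lowest p in the hypothalamus at 8 weeks, and the 3 genes most alike Sst, Cort and Sstr3) were chosen with earlier results of these data known.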

Additional observations from a re-analysis of the deposited data

Results flagged for a closer look

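The 4-week change of Sstr3 1441603_at in the cortex differed from that in the hypothalamus by -0.70 (SE 0.20, interval -1.11 to -0.29, adjusted p = 0.112 in limma), and from that in the arrays labelled hippocampus by -0.88 (SE 0.22, interval -1.33 to -0.42, adjusted p = 0.133). With arrays of 1 animal taken as independent, the first was -0.69 and was not called (adjusted p = 0.164). Both stood out because the change itself differed between tissues by a test. All 3 cortex cKO arrays lay below all 3 control arrays, and in the other tissues the groups overlapped. The second Sstr3 probe set gave -0.40 (adjusted p = 0.375) and -0.43 (adjusted p = 0.605) for the same differences.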

How the results depend on the processing

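Values are log2 differences, and the cause of each change given here was not tested. In the cortex at 4 weeks, no member gene was called as reported; 1 was called with no filter, with 10000 genes and with the probe set of highest mean for each gene, 5 with array weights (which called 66% of all genes) and, chosen after seeing the data, 3 without both arrays numbered 3 (which called 56%); leaving out 1 replicate gave 0 to 3, the 3 being without control replicate 3. Sstr3 1441603_at was no longer called with each array centred on its median (-0.82), only the 6 arrays compared (-0.74, adjusted p = 0.368), the methods' t-test after adjustment (-0.74, adjusted p = 0.434), or the array median as a covariate, added after seeing the data (-0.56); leaving out 1 replicate gave -0.83 to -0.66. The covariate turned Sst from 0.22 to -0.029 and Sstr3 1450577_at to 0.19. It nearly follows treatment at 4 weeks, so the array median and treatment cannot be told apart. Sstr3 1450577_at was called with array weights (-0.85) and without both arrays numbered 3 (-0.95), and leaving out 1 replicate gave -0.85 to -0.18. With arrays of 1 animal taken as independent, the cortex minus hypothalamus change of Sstr3 1441603_at was -0.69 (adjusted p = 0.164). Leaving out 1 array, chosen after seeing the data, gave -0.79 to -0.62 for it and -0.96 to -0.76 for cortex minus hippocampus label, each call being lost for 7 of 12 arrays. No label pairs cKO with control arrays, and like-numbered arrays deviated together throughout only in the hypothalamus at 8 weeks. With the replicate number as a block in limma, Sstr3 1441603_at in the cortex at 4 weeks was -0.74 (adjusted p = 0.216). No other member difference changed its call under the block. In the cortex at 4 weeks no gene of any list was called under the block, in a fit of the 6 arrays alone or by the methods' t-test after adjustment. In the other 5 comparisons no member gene was called under any alternative run.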
